A study of Mus musculus with 2 samples.

Results

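Cytotoxic lymphocyte effector genes were examined in the pancreatic lymph node of diabetic mice through 10 genes of the 27845 distinct gene names on the array: Nkg7, Ccl5, Gzma, Gzmb, Gzmk, Prf1, Klrd1, Ctsw, Cst7 and Cxcr3. They were taken as a group of known function, with every one of their 13 probes (of 41174 gene probes in all). Nkg7, Ccl5 and Cst7 had 2 probes each and the other genes 1. Each of 2 hyperglycemic female NOD mice (blood glucose above 500 mg/dl, 16 weeks old) was labelled with Cy5 and hybridised on its own two-colour array. The Cy3 channel of both arrays held 1 pool of 2 euglycemic female NOD mice of the same age (below 200 mg/dl). NOD is an inbred strain in which autoimmune T cells destroy the insulin-producing cells of the pancreatic islets, and no further allele or treatment is given for either group. The comparison asks which transcripts of the node differ once the mice have become hyperglycemic.

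CD8 T cells and natural killer cells kill by releasing granules at the contact with a target cell. Perforin opens the target membrane, and granzymes, proteases activated inside the granule by cathepsin C, enter through it and start cell death. The same cells secrete chemokines such as Ccl5 and carry Cxcr3, the receptor through which the interferon-induced chemokines Cxcl9, Cxcl10 and Cxcl11 attract effector T cells to inflamed islets. In diabetes of NOD mice CD8 T cells take a direct part in beta cell loss, and the pancreatic lymph node is where islet-reactive T cells are first primed.

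Promoters are shown here for members from both ends of the measurements: Nkg7, which was called lower, Cxcr3, which had the lowest mean ratio, and Gzmb, which was not measured above background in the hyperglycemic mice. Each is the RefSeq window of 300 bases (250 before to 50 after the transcription start, GRCm38.p6), 5′ to 3′ on the gene's strand. Capitals mark matches, on either strand, to TGTGGT, the core bound by RUNX factors, and to AGGTGTGA, a site bound by T-box factors such as T-bet and Eomes. None of these matches overlapped another. The windows are chr7:43436888-43437187 (plus strand) for Nkg7, chrX:101734098-101734397 (minus strand) for Cxcr3 and chr14:56262285-56262584 (minus strand) for Gzmb.
Nkg7: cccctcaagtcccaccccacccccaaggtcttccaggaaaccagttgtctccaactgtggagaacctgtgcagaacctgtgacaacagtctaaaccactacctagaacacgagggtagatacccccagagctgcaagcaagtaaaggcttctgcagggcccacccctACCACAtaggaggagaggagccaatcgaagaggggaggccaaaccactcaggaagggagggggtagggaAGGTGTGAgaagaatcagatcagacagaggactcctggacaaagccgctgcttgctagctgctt
Cxcr3: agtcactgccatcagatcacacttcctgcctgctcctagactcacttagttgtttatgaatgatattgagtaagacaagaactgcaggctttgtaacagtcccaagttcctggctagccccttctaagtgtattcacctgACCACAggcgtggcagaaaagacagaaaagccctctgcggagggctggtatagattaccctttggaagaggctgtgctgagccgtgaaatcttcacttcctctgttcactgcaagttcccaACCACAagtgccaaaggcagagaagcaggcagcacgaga
Gzmb: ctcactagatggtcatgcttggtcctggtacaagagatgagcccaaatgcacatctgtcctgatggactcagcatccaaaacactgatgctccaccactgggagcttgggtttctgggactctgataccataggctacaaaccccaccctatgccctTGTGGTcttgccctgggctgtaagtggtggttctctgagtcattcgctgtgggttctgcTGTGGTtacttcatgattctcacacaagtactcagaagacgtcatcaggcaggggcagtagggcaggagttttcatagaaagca

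The RefSeq table held windows for 7 of the 10 genes (Nkg7, Gzma, Gzmb, Gzmk, Prf1, Cst7 and Cxcr3), and 4 motifs were searched in them on both strands. TGTGGT was found in 6 of 7 (all but Gzmk), against 16.9% of the windows of 27025 genes. In Nkg7 it lay 83 bases before the start, in Cxcr3 110 bases before and 12 bases after it, and in Gzmb 93 and 34 bases before it. AGGTGTGA was found in Nkg7 alone among the 7, 14 bases before the start, and in 1.27% of all windows. The ETS core AGGAAG was in 4 of 7 (Cst7, Cxcr3, Nkg7 and Prf1) and in 35.1% of all windows. The kappa-B letters GGGANTTTC were in Cst7 alone and in 1.15% of all windows. These matches describe letters in the windows, and no binding was measured in these samples.

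The Cy5 channel was dim on both arrays, which limited how many members could be measured in the hyperglycemic mice. The median Cy5 spot signal over gene probes was 37.7 and 38.2 on arrays 1 and 2, beside 36.0 and 36.6 for the 153 negative control spots. The Cy3 medians were 234 and 81.2, beside negative control medians of 51.0 and 45.6, with an upper quartile of the negative controls of 157 on array 1 and 47.7 on array 2. The linear part of the dye normalization multiplied Cy5 signals by 45.7 and 50.8, and Cy3 signals by 0.446 and 1.31. Processed signals, in which background was subtracted and the dyes were normalized, are the values given below unless spot signals are named. The share of gene spots that the scanning software flagged as well above background was 14.5% and 16.4% in Cy5, and 21.7% and 63.0% in Cy3.

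In the Cy5 channel 3 of the 13 probes were well above background in both hyperglycemic mice, 4 in hyperglycemic mouse 2 alone and 6 in neither. In the Cy3 channel of the pool, 8 probes were well above background on both arrays, 4 on array 2 alone and 1 on neither. The probes that passed in Cy5 and in Cy3 on each array were 1 of Nkg7 and both of Ccl5. Limma tested each such probe's mean log2 ratio of hyperglycemic mouse over pool against 0, among 5071 probes of the whole array that passed the same filter. The filter demands signal in the dimmer Cy5 channel, so the other 8 genes were outside the test and are described by their values. Agreement between the arrays is read over 2 hyperglycemic mice, while the pool is 1 control sample read on each array, so the spread among euglycemic mice is in no value or test. Cy5 always held the hyperglycemic mouse, and dye and group cannot be told apart.

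**Figure D1:**
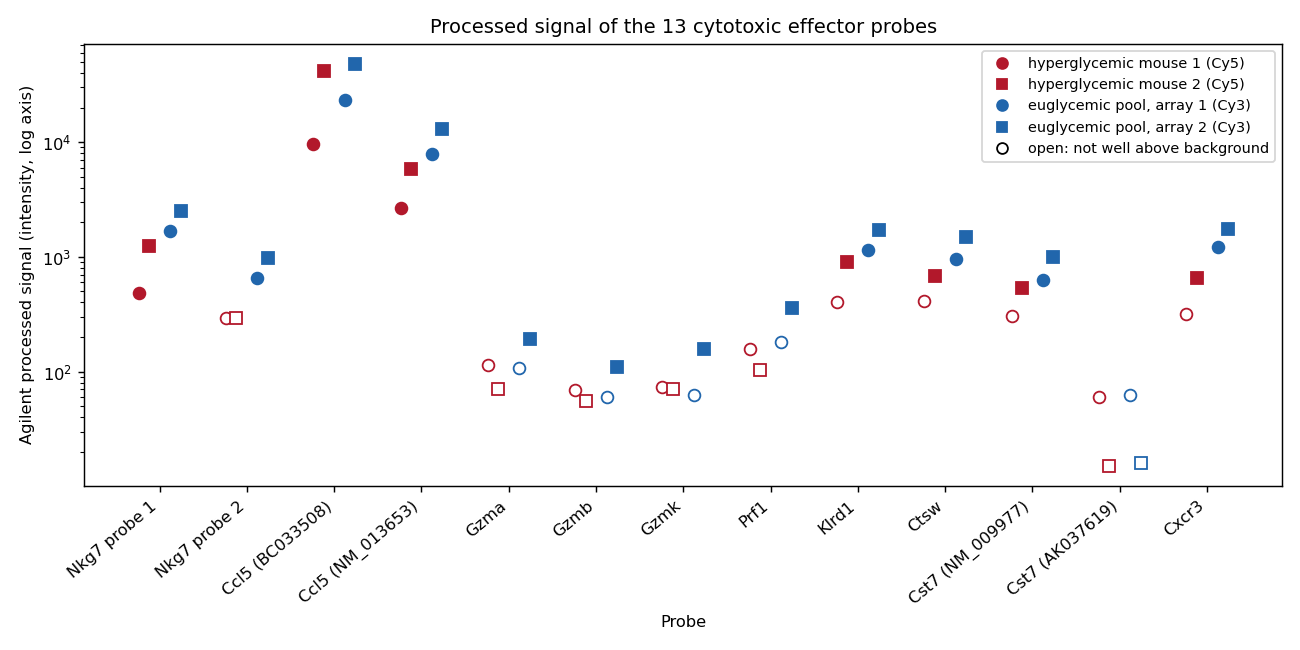
Agilent processed signal (log axis) of each of the 13 probes, with the hyperglycemic mice (Cy5, red) left of the euglycemic pool (Cy3, blue), circles for array 1 and squares for array 2. Open symbols were not well above background: 10 of 13 probes have at least 1 open symbol in Cy5, and 5 in Cy3. Red lies below blue of the same array for both Ccl5 and both Nkg7 probes, Prf1, Klrd1, Ctsw, Cxcr3 and the NM_009977 probe of Cst7.

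Nkg7 and Ccl5 were lower in both hyperglycemic mice in Agilent's processed signals. All 3 tested probes were called lower at an adjusted p under 0.05 and 0 higher, where 18.4% of the 5071 tested probes were called lower and 25.2% higher. Their median log2 ratio was -1.36, and that of all tested probes was 0.06. Nkg7 and Ccl5 share the direction and differ in how far their probes and mice agree, as follows. In bulk tissue, fewer cells that carry a transcript and less transcript per cell cannot be told apart.

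Nkg7 encodes a membrane protein of cytotoxic granules that takes part in their release. Its tested probe (mm8 chromosome 7, 43306032 to 43306091, matched by the array design to NM_024253) read 482 and 1240 in hyperglycemic mice 1 and 2, against 1690 and 2516 in the pool on arrays 1 and 2. Both mice lay below the pool on their own array and below both pool readings. The log2 ratios were -1.81 and -1.02, with a mean of -1.42 ± 0.56 (SD, n = 2), or 2.67-fold lower (limma, adjusted p = 0.00256). Behind the Cy5 values stood spots of 46.6 and 58.9, that is 9.26 and 21.0 above the background used, against Cy3 spots of 4000 and 2204. The difference thus rests on Cy5 signals a few units above background.

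The other Nkg7 probe (43305698 to 43305757, same transcript) was well above background in the pool on both arrays and in neither hyperglycemic mouse. It read 294 and 293 in hyperglycemic mice 1 and 2, against 658 and 972 in the pool. With the dim channel held at the lowest signal well above background, it stood 2.60-fold lower in the hyperglycemic mice. That fold compares mean log2 channel values, measured as 8.20 in the hyperglycemic mice and 9.64 in the pool, and since dyes were not swapped it is open to dye bias. It holds for processed signals alone: from spot signals with normexp offset 50 the probe's log2 ratio was -0.23. The lowest signal well above background is no ceiling for dim readings, since Ctsw at 408 in mouse 1 was also not well above background. The fold of 2.60 is therefore not a lower limit. Both Nkg7 probes had ratios below 0 on both arrays.

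Ccl5 is a chemokine that effector and memory CD8 T cells and natural killer cells store and secrete. The probe matched to NM_013653 (mm8 chromosome 11, 83342140 to 83342195) read 2673 and 5792 in hyperglycemic mice 1 and 2, against 7839 and 13087 in the pool on arrays 1 and 2. Each mouse read less than the pool on its own array. Its log2 ratios were -1.55 and -1.18, with a mean of -1.36 ± 0.27 (SD, n = 2), or 2.57-fold lower (limma, adjusted p = 0.0014).

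The other Ccl5 probe (83341989 to 83342048, matched to BC033508) agreed less between the mice. It read 9712 and 41636 in hyperglycemic mice 1 and 2, against 23114 and 47909 in the pool. Mouse 1 was well below the pool of its array and mouse 2 slightly below. The log2 ratios were -1.25 and -0.20, with a mean of -0.73 ± 0.74 (SD, n = 2), or 1.65-fold lower (limma, adjusted p = 0.0475). The Cy5 spots of mice 1 and 2 were 264 and 931 for this probe and 90.5 and 140 for the NM_013653 probe. The direction of the BC033508 probe turned with the processing: starting from spot signals it stood at 0.27 with no background correction, 0.31 with normexp offset 10 and 0.97 with normexp offset 50. Under the same processings the NM_013653 probe stood at -1.09, -1.12 and -0.77, and Nkg7 at -0.75, -0.97 and -0.62. Whether the BC033508 probe is lower thus depends on the background correction, while the NM_013653 probe and Nkg7 stayed below 0. With the same filter none of the 3 probes kept its call after normexp with either offset (limma, adjusted p from 0.0575 to 0.303), and 0 of all 5071 tested probes were called lower there. With normexp offset 50 and a filter that asks for signal in 1 or both channels of each array, the NM_013653 probe was called (adjusted p = 0.0178), where 0.488% of 8813 probes were called lower.

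**Figure D2:**
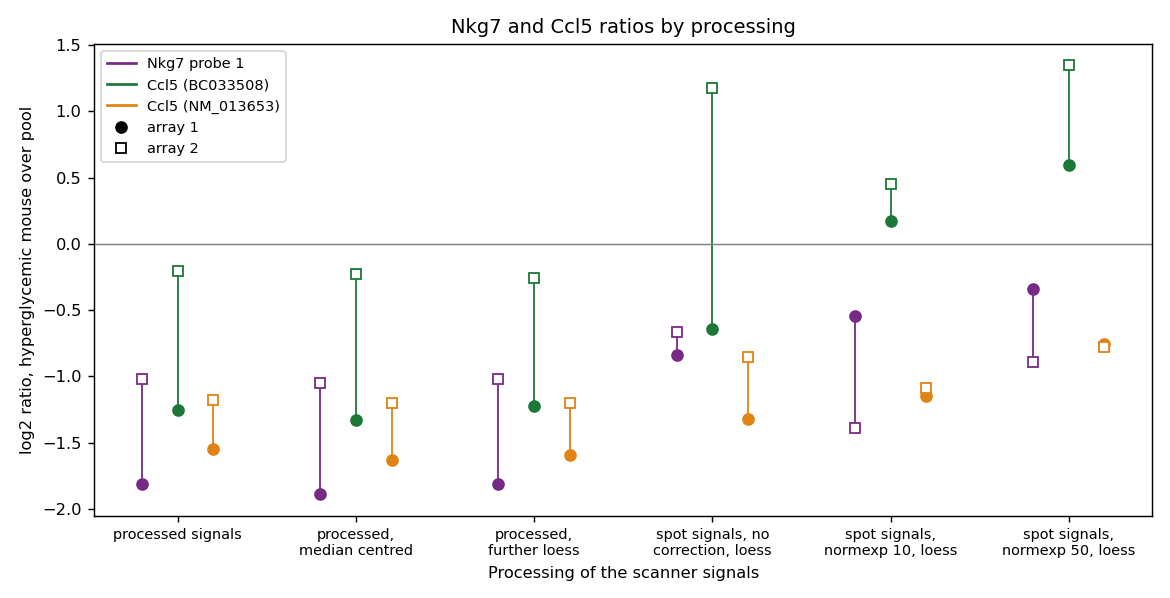
Log2 ratio (hyperglycemic mouse over pool) of the 3 tested probes under 6 ways of processing the scanner signals, filled circles for array 1 and open squares for array 2, joined by a line. Nkg7 (probe 1) and the NM_013653 probe of Ccl5 lie below 0 on both arrays throughout, and the BC033508 probe of Ccl5 lies above 0 on both arrays after normexp.

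Of the granule proteins beside Nkg7, cathepsin W and cystatin F were measured well above background in hyperglycemic mouse 2 and in the pool. Ctsw is a cysteine protease of CD8 T cells and natural killer cells. Its probe (mm8 chromosome 19, 5465371 to 5465430) read 408 and 677 in hyperglycemic mice 1 and 2, against 954 and 1482 in the pool. The log2 ratios were -1.22 and -1.13, a mean of -1.18 ± 0.07 (SD, n = 2). Mouse 1 was not well above background.

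Cst7 encodes cystatin F, an inhibitor of cathepsin C. Its NM_009977 probe (mm8 chromosome 2, 150270195 to 150270254) read 303 and 539 in hyperglycemic mice 1 and 2, against 624 and 1007 in the pool, with mouse 1 not well above background. The log2 ratios were -1.04 and -0.90, a mean of -0.97 ± 0.10 (SD, n = 2). The other Cst7 probe, matched to the cDNA AK037619 (150257896 to 150257955), was not well above background in either channel on either array, so it gives no ratio.

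The surface receptors Klrd1 and Cxcr3 were read in the same way, above background in hyperglycemic mouse 2 and on both arrays in the pool. Klrd1 is CD94, which pairs with NKG2 chains on natural killer cells and activated CD8 T cells. It read 404 and 897 in hyperglycemic mice 1 and 2, against 1147 and 1716 in the pool (mm8 chromosome 6, 129564066 to 129564125). The log2 ratios were -1.51 and -0.94, a mean of -1.22 ± 0.40 (SD, n = 2).

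Cxcr3 (mm8 chromosome X, 97934300 to 97934359) read 316 and 657 in hyperglycemic mice 1 and 2, against 1215 and 1740 in the pool. Its log2 ratios were -1.94 and -1.40, a mean of -1.67 ± 0.38 (SD, n = 2), the lowest mean ratio of the 13 probes in processed signals. The net Cy5 signals behind Ctsw, Cst7 (NM_009977), Klrd1 and Cxcr3 lay between 6.41 for Cst7 in mouse 1 and 14.6 for Klrd1 in mouse 2. The size of these ratios depended on the processing. From spot signals with normexp offset 50 the mean log2 ratios were -0.37 ± 0.17 for Cxcr3, -0.35 ± 0.27 for Ctsw, -0.27 ± 0.11 for Klrd1 and -0.17 ± 0.13 for Cst7 (SD, n = 2). All 4 stayed below 0 on both arrays, and none was called (limma, adjusted p from 0.157 to 0.430).

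Perforin and the granzymes were at the limit of detection in both groups. Prf1, the pore-forming protein, read 157 and 103 in hyperglycemic mice 1 and 2, against 179 and 360 in the pool, and only the pool on array 2 was well above background. The trypsin-like granzyme Gzma read 114 and 70.0 in hyperglycemic mice 1 and 2, against 108 and 194 in the pool, and again only the pool on array 2 was well above background. Gzma thus stood above the pool in mouse 1 and below it in mouse 2, and its Cy5 value in mouse 2 is a surrogate for a signal not above background.

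Gzmb, the granzyme that activates caspases, read 68.5 and 55.0 in hyperglycemic mice 1 and 2, against 60.2 and 109 in the pool. Gzmk, a granzyme of memory CD8 T cells, read 73.9 and 70.8 in hyperglycemic mice 1 and 2, against 63.0 and 158 in the pool. For these granzymes the Cy5 values and the Cy3 values of array 1 are surrogates as well, so array 1 holds no measured ratio. Only the pool on array 2 was well above background. For Prf1, Gzma, Gzmb and Gzmk no fold is given, since the pool's mean over both arrays did not exceed the lowest Cy5 signal well above background.

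**Figure D3:**
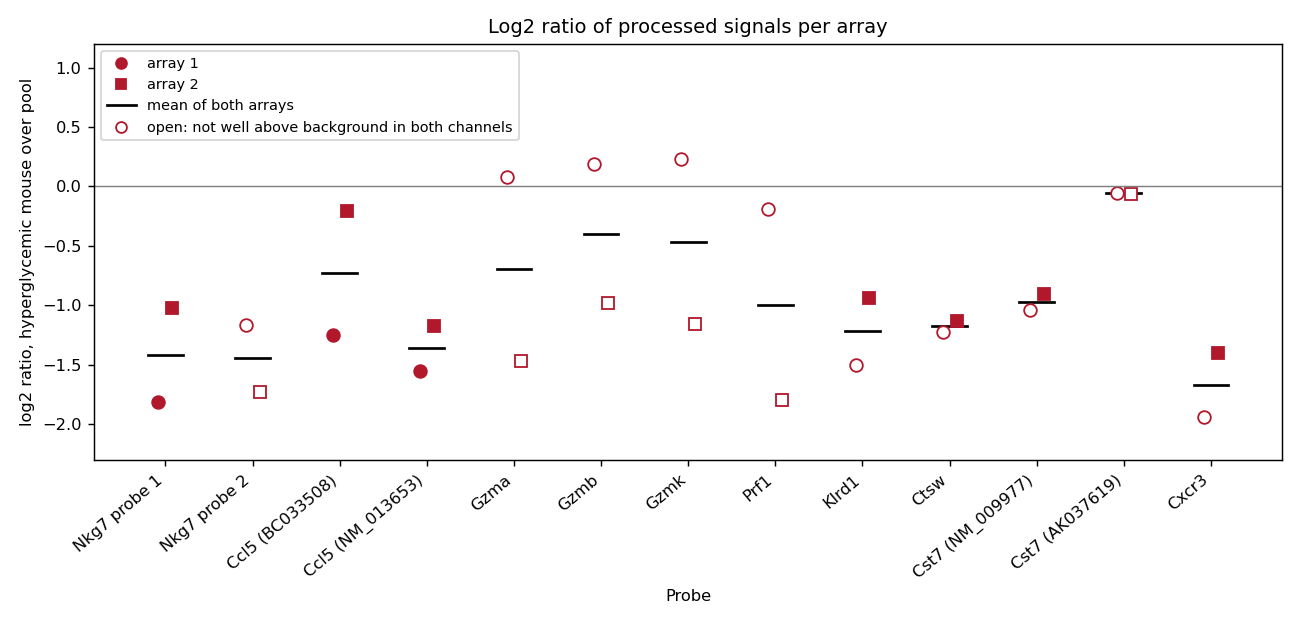
Log2 ratio of processed signals (hyperglycemic mouse over pool) for each probe on array 1 (circles) and array 2 (squares), with the mean as a bar; filled symbols were well above background in both channels on that array. Cxcr3, Nkg7, Klrd1, Ctsw, Prf1, Ccl5 and the NM_009977 probe of Cst7 lie below 0 on both arrays, and the granzymes lie on both sides of 0 with open symbols.

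A weaker demand, signal positive and significantly above background in Cy5 and Cy3 alike on each array, let in 9 probes of 7 genes (both of Nkg7 and Ccl5, 1 of Cst7, Ctsw, Cxcr3, Klrd1 and Prf1). This filter was chosen after the values were seen. All 9 had ratios below 0 on both arrays, where 40.4% of the 10432 probes that passed the same demand did, and 34.6% lay above 0 on both. With that filter limma called 0 of the 9 at an adjusted p under 0.05, 7 had an unadjusted p under 0.05, and their adjusted p ran from 0.0863 to 0.239. Over the whole array that fit made 0 calls, with 3393 of its probes at an unadjusted p under 0.05. From spot signals with normexp offset 50, 7 of the 9 stood below 0 on both arrays, where 34.5% of the 10432 probes did. The exceptions were the BC033508 probe of Ccl5, above 0 on both arrays, and Prf1, at 0.01 and -0.13. In that fit 1 of the 9 was called lower (the NM_013653 probe of Ccl5, adjusted p = 0.0405) and 0 higher, against 0.0288% and 1.56% of all probes. The common direction is therefore a count over 2 mice in processed signals and not a set of called genes.

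The wider cytotoxic list held 55 further genes, of which 43 had no probe well above background in Cy5 on either array. They covered the other granzymes, granule release, death ligands, cytokines, killer receptors and transcription factors. Of 8 tested probes (7 genes) 1 was called higher, 3 lower and 4 were not called, where 25.2% of all tested probes were called higher and 18.4% lower. Their median log2 ratio was -0.32, against 0.06 for all tested probes. Lamp1, a lysosomal membrane protein that reaches the cell surface on degranulation and is made by nearly all cells, was higher at 0.86 ± 0.30 (SD, n = 2; limma, adjusted p = 0.00698). Ctsc, the cathepsin that activates granzymes, was lower at -0.86 ± 0.19 (adjusted p = 0.00557).

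Hcst, the DAP10 adaptor of the killer receptor NKG2D, was lower at -0.74 ± 0.36 (limma, adjusted p = 0.0148), and Il2rb, the interleukin-2 and interleukin-15 receptor chain on which these cells depend, at -0.70 ± 0.36 (adjusted p = 0.0176). Lamp1, Ctsc, Hcst and Il2rb kept their sign under all 5 other scalings, but with normexp offset 50 Ctsc stood at -0.39, Hcst at -0.30 and Il2rb at -0.21. Of the 8 probes 0 were called after normexp with either offset (limma; 3 and 2 at an unadjusted p under 0.05 with offsets 50 and 10), and 1 higher and 1 lower with no background correction. Normexp with offsets 50 and 10 put 1159 and 1131 of all 5071 tested probes at an unadjusted p under 0.05. It called 1.83% (offset 50) and 0% (offset 10) of all 5071 higher, and 0 lower. With no background correction 19.7% were called higher and 12.9% lower. Not called were the granule proteoglycan gene Srgn at -0.28 ± 0.04 (above 0 from spot signals, up to 0.38), the adaptor Tyrobp at -0.35 ± 0.10 and the transcriptional regulator Id2 at 0.36 ± 0.06 and 0.22 ± 0.04 on its 2 probes. Ctsc, its inhibitor Cst7 (NM_009977) and Srgn, the carrier of granule proteases, had processed-signal ratios below 0 on both arrays. The same held for 37.4% of the 5071 tested probes, which include Ctsc and Srgn but not Cst7. It held for 40.4% of the 10432 positive and significant probes, which include all 3. Ctsc was called, Srgn was tested and not called, and Cst7 was outside the test. Lamp1 of the wider list went the other way and was called higher.

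The chemokines that bind Cxcr3 were singled out after their values were seen. Cxcl10 read 203 and 221 in hyperglycemic mice 1 and 2, against 487 and 802 in the pool, and was well above background in the pool alone. Cxcl9 read 335 and 668 in hyperglycemic mice 1 and 2, against 512 and 871 in the pool, well above background in mouse 2 and in the pool. Cxcl11 was not well above background in any channel. None of the 3 ligands met the filter of the test.

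T cell markers were lower on the same arrays. All 7 tested of 11 listed T cell genes were called lower, where 18.4% of the 5071 tested probes were. Their median was -1.21, with means between -1.86 ± 0.15 for Cd3g, a chain of the T cell receptor complex, and -0.61 ± 0.15 for Cd6 (SD, n = 2). Cd8a, the co-receptor of cytotoxic T cells, stood at -1.83 ± 0.22, Thy1 at -1.28 ± 0.26, Cd3d at -1.21 ± 0.09, Cd5 at -1.09 ± 0.33 and Cd247 at -0.90 ± 0.02. The T cell list's median was below 0 under all 5 other scalings, from -1.26 to -0.60. As for the effector probes, the calls depended on the background correction. After normexp 0 of 7 were called with either offset (limma; 5 and 6 at an unadjusted p under 0.05 with offsets 50 and 10). Those fits called 0 of all 5071 tested probes lower, and put 1159 (offset 50) and 1131 (offset 10) at an unadjusted p under 0.05. Cd6 stood at -0.01 with offset 50. With no background correction 6 of 7 were called lower, where 12.9% of all tested probes were. Cd3e was outside the test, and its NM_007648 probe read 210 and 391 in hyperglycemic mice 1 and 2, against 161 and 269 in the pool. That probe lay above the pool on both arrays and was well above background in the pool on array 2 alone. The summed signal of all 20 probes of the T cell list was 17540 and 26022 in hyperglycemic mice 1 and 2, against 36131 and 56689 in the pool. The part of T cell content in the effector ratios was not tested.

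Natural killer markers could not be followed in the hyperglycemic mice: 0 of 13 probes of 8 genes (Ncr1, Klrb1c, Klre1, Klrk1, Klra4, Klra8, Eomes and Cd244) were well above background in Cy5, and Klre1 and Klra4 were dim in the pool as well. B cell markers were lower for 2 of 3 tested probes (both of Ms4a1; Cd79b was not called), with a median of -0.63. Lymph node markers were present in both groups, with Ccl19 and Ccl21a bright and Ccr7 well above background. Of 4 lymph node probes 3 were called lower, and from spot signals the median of these 4 stood above 0, up to 0.88. Of 4 macrophage and monocyte probes 1 (Adgre1) was called higher and 3 (both of Lyz2 and Csf1r) were not. These counts stand beside 18.4% of the 5071 tested probes called lower and 25.2% higher in processed signals. After normexp with either offset 0 probes of the B cell, lymph node and macrophage lists were called in limma (4 with offset 50 and 2 with offset 10 at an unadjusted p under 0.05). Of all 5071 tested probes those fits called 0 lower, and 1.83% (offset 50) and 0% (offset 10) higher. They put 1159 (offset 50) and 1131 (offset 10) of the 5071 at an unadjusted p under 0.05.

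Exocrine pancreas markers, genes of the digestive enzymes of acinar cells, were bright in both groups. Of 12 tested probes 7 were called higher (Clps, Cpa1, Cpb1, Ctrb1, Try5 and both of Pnlip) and 3 lower (Amy2a5 and both of Cela1), and Cela2a and Prss2 were not called. The shares over all tested probes were 25.2% higher and 18.4% lower. The 3 lower probes stood above 0 when spot signals were the start, from 0.02 to 3.28. The list's median, 0.60 in processed signals, was then 4.51 with normexp offset 50, 3.07 with offset 10 and 2.87 with no background correction, with all 12 probes above 0. Of the 12, 4, 0 and 10 were called higher under these processings, where 1.83%, 0% and 19.7% of all 5071 tested probes were. The summed signal of all 14 probes was 1512561 and 2508807 in hyperglycemic mice 1 and 2, against 1170314 and 1716258 in the pool. The part of pancreatic RNA in the effector ratios was not tested.

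**Figure D4:**
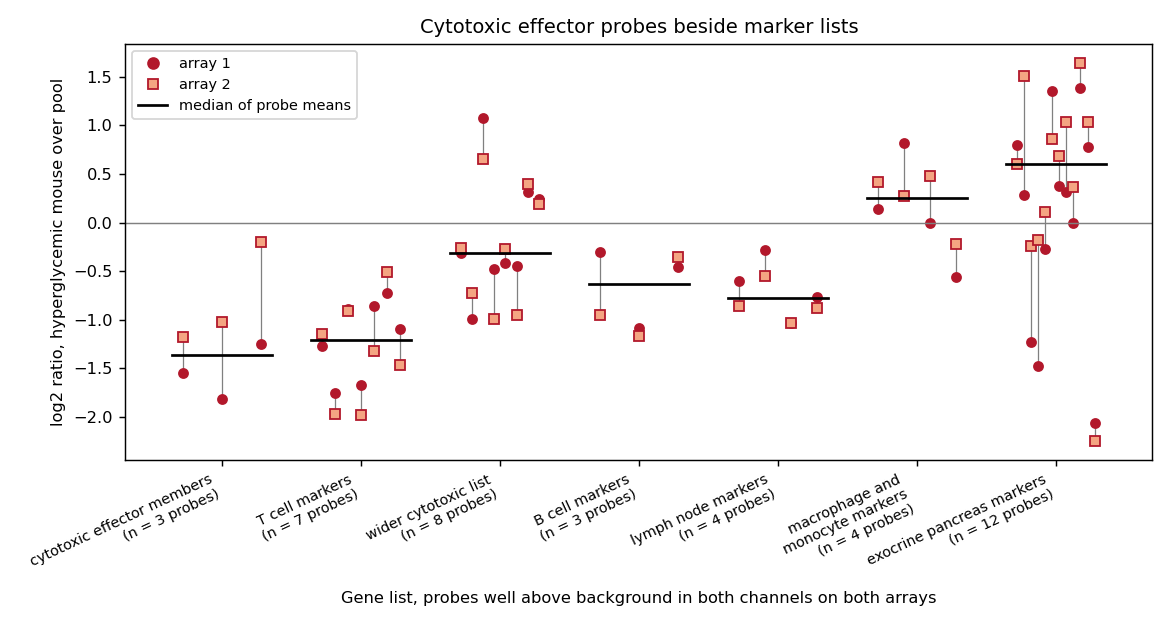
Log2 ratio (hyperglycemic mouse over pool) of every tested probe, by gene list; circles are array 1, squares array 2, and bars the median of probe means. The 3 effector probes and the 7 T cell probes lie below 0 on both arrays, with medians of -1.36 and -1.21, and exocrine pancreas probes lie on both sides of 0 with a median of 0.60 in these processed signals.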

How the data were processed

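Members and gene lists were chosen with earlier results of these data known. Per the file headers, Agilent Feature Extraction 10.7.3.1 read the scans. Spot and local background intensity is as scanned. The processed intensity had background and a spatial trend subtracted, a surrogate in place of any signal at background level, and the dyes normalized, per the file headers. The log10 ratio column is Cy5 over Cy3 processed signal, per the file headers. The deposited log2 ratios (5098 probes, 5072 of them gene probes) equal it times 3.32 and were an alternative.

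Here log2 of Cy5 over Cy3 processed signal was taken, spots flagged as outliers (338 and 184) were left out and spots of a probe averaged. Probes that passed the software's background call in Cy5 and in Cy3 on each array (5071) were tested with limma 3.58.1 in R 4.3.3, two-sided against 0 with 1 residual degree of freedom, and adjusted by Benjamini-Hochberg. Processed signals were preferred over normexp because the Cy3 negative controls lay above the local background (median 51.0 over 31 on array 1). Genes of the lists were matched by name or by accession (GRCm38.p6 table, names only), and some listed genes are not reported here. All members, and listed genes that were called or passed the filter, are named. Both arrays were on the same slide. Simulated on 5071 probes, 91 of 100 changes of 1 (log2) and 100 of 100 changes of 2 were recovered, with 9 false calls. The simulated noise was independent and drawn from the prior variance that limma fitted here. It held no shared pool, dye effect or dim Cy5 signal, so it checks the working of the test alone. The power and the error rate on these arrays cannot be read from it. The number of arrays limits the precision.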

Additional observations from a re-analysis of the deposited data

How the results depend on the processing

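No member probe was called higher under any of the 12 alternatives run, 2 of them (the positive and significant filter, with processed signals and with normexp offset 50) added after the values were seen. Over the alternatives, 0% to 22% of all tested probes were called lower and 0% to 25.9% higher. Normexp offset 10, and processed signals with a wider filter or none, called 0 probes of the whole array higher, so no member could be called higher there. The count called lower, 3 with the filter on both channels, was 3 in the deposited ratios, with median centring, with a further loess on intensity and when the variance was allowed to follow intensity, and 2 with no background correction. It was 0 in limma with normexp offset 50 (3 of 3 at an unadjusted p under 0.05) or 10 (2 of 3), with processed signals filtered on at least 1 channel (7 of 8 member probes at an unadjusted p under 0.05) or not filtered (7 of 13), and with probes positive and significant in both channels (7 of 9). In each of these 5 fits 0 probes of the whole array were called lower. With normexp offsets 50 and 10, 1159 and 1131 of all 5071 probes had an unadjusted p under 0.05. In processed signals 3396 of 8813 did with the filter on at least 1 channel, 5032 of 41162 unfiltered and 3393 of 10432 positive and significant. The filter on at least 1 channel let in the other Nkg7 probe through the pool alone. With normexp offset 50 and that filter or the positive and significant one, 1 member probe was called lower, the NM_013653 probe of Ccl5. Normexp offset 50 also moved the other Nkg7 probe, Klrd1, Ctsw, Cst7 and Cxcr3 towards 0, to between -0.37 and -0.17. The calls lost with wider filters of processed signals kept their ratios. The prior variance of limma carried 6.36 degrees of freedom with the filter on both channels and 2.16 with the filter on at least 1. The prior SD was 0.232 and 0.299, and the probes tested were 5071 and 8813. The part of each in the lost calls was not tested. The BC033508 probe of Ccl5 turned to 0.97 with normexp offset 50 under each filter, 0.31 with offset 10 and 0.27 with no background correction, and the cause was not tested. Leaving out either mouse leaves 1 array and no test; the single-array ratios are those given above. No paired analysis was possible because both samples are of 1 group and were set against the same pool. Prf1, the granzymes, the AK037619 probe of Cst7 and the other Nkg7 probe had no Cy5 signal well above background, which limits their ratios. Low expression and low sensitivity cannot be told apart there.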

Other observations

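Among the transcription factors of the wider list, chosen for mention after their values were seen, Tbx21 (T-bet, which drives Ifng and Cxcr3 in effector T cells) read 662 and 400 in hyperglycemic mice 1 and 2, against 219 and 309 in the pool. It was well above background in hyperglycemic mouse 1 and in the pool on array 2, and its log2 ratios were 1.60 and 0.37. Eomes read 65.4 and 49.4 in hyperglycemic mice 1 and 2, against 66.8 and 78.6 in the pool, and only the pool on array 2 was well above background. Stat4 went the other way from Tbx21, at log2 ratios of -1.36 and -0.85. It was well above background in 1 hyperglycemic mouse and in the pool on both arrays. Serpinb6b, a granzyme inhibitor gene, had the lowest mean log2 ratio of the wider list in processed signals (-2.31). Serpinb6b read 291 and 388 in hyperglycemic mice 1 and 2, against 1337 and 2089 in the pool, and was well above background in the pool alone.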
